A study of Homo sapiens with 36 samples.

Results

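SUZ12 binding after loss of the long isoform of PHF19 was described at the 508 genomic regions that the authors' comparison of SUZ12 ChIP-seq between shPHF19L#4 and shCTR cells lists, out of 7756 regions in 5 lists of the study, 4 of which compare shPHF19L#4 with shCTR cells and 1 of which sets PHF19 against input in shCTR cells. Every listed region was used, with no further selection. The cells were DU145, an established human prostate cancer line. Control cells carried a control shRNA (shCTR) and depleted cells an shRNA against the long isoform of PHF19 (shPHF19L#4), and SUZ12 was precipitated with the same antibody in 2 replicates of each. The study's methods describe fly chromatin with an antibody against the fly histone H2Av as a spike-in for the SUZ12 ChIP of both groups, and the sample labels name that antibody for replicate 1 only. No measurement of PHF19 itself in the depleted cells enters the values given here.

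SUZ12 is a core subunit of Polycomb repressive complex PRC2, in which EZH2 is the enzyme that methylates histone H3 at lysine 27 to give H3K27me3, a mark of silenced developmental genes. PHF19 and MTF2 are Polycomb-like proteins that join PRC2 as accessory subunits, and both can bind DNA rich in CpG dinucleotides. In mammals PRC2 is found mainly at CpG islands, many of which lie at the promoters of genes for transcription factors and signalling proteins.

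The sequences of a few regions show the kind of DNA involved. For each, the 200 bases with the most CpG dinucleotides outside annotated untranslated regions are given, plus strand of hg19, 5′ to 3′, with each CG in capitals. A high CpG count follows from this choice of stretch. Over all regions the count per 200-base stretch had a median of 33 and ran from 5 to 55. Its rho with the SUZ12 change was 0.217. The regions with the 3 largest gains of SUZ12 come first. At SAMD11 the stretch chr1:877259-877458 lay in an intron and held 38 CpG. The stretch chr17:2627839-2628038, whose nearest protein-coding start site is that of CLUH, overlapped an exon of CCDC92B and held 36. At ZFPM1, which encodes a cofactor of GATA factors, chr16:88520072-88520271 overlapped an exon and held 33.
SAMD11: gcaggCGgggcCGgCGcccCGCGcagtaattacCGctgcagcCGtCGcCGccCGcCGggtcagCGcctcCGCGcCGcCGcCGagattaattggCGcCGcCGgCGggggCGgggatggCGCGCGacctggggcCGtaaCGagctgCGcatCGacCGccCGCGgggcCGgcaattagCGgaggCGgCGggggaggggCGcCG
Region near CLUH: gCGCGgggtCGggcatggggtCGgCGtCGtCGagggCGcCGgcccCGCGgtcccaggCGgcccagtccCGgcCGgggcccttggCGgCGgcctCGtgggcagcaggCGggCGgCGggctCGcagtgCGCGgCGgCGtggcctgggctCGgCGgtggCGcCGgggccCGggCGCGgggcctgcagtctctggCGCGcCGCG
ZFPM1: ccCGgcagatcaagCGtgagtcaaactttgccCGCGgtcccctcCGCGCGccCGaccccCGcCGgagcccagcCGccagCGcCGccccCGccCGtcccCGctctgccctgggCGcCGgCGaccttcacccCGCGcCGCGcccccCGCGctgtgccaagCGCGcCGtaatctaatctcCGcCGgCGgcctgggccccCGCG
The 3 smallest gains gave the next set. The stretches chr15:29863184-29863383 at ENTREP2, with 36 CpG, and chr12:24716095-24716294 at SOX5, with 29, were between annotated genes just upstream of the start site. The stretch chr15:60289324-60289523 at FOXB1, with 26, lay in an intron of a gene without a symbol.
ENTREP2: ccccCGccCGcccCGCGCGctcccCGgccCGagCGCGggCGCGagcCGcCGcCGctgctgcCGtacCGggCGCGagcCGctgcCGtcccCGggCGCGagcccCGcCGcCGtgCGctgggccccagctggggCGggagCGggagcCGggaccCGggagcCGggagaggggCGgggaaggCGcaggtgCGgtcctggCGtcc
FOXB1: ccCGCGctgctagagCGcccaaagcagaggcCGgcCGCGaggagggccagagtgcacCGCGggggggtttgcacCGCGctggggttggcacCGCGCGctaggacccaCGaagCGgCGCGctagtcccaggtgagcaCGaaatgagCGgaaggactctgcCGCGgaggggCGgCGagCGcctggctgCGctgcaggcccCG
SOX5: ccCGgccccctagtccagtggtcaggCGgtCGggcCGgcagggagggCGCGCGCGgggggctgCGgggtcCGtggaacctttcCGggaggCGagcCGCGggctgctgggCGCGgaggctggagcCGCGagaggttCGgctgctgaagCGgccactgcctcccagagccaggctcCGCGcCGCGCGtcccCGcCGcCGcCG
A last pair contrasts the region with the highest SUZ12 level with the promoter region of the lowest CpG ratio. The stretch at NPAS3, chr14:33408593-33408792, lay in an intron and held 33 CpG. The stretch at GJC3, chr7:99527013-99527212, overlapped an exon and held 12.
NPAS3: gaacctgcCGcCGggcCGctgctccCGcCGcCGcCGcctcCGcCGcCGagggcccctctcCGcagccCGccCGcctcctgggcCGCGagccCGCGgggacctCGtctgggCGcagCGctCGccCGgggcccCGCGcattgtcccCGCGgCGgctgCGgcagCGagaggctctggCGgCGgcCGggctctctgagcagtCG
GJC3: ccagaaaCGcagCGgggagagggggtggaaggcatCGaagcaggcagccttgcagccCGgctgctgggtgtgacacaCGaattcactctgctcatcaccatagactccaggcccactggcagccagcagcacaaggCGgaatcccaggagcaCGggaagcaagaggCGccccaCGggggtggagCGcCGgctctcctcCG

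One point about the libraries bears on what follows. The SUZ12 peak list of shCTR replicate 1 stood apart from that of replicate 2. It held 1523 peaks with a median CpG ratio of 0.151, where the ratio is the number of CpG dinucleotides observed over that expected from the C and G content, and 5.06% of them had a ratio of at least 0.6. The list of replicate 2 held 232 peaks with a median ratio of 0.754, and 85.3% reached 0.6. Of the replicate 1 peaks, 7.22% overlapped a promoter and 3.68% a listed SUZ12 region, against 71.1% and 70.3% of the replicate 2 peaks. The EZH2 list of shCTR replicate 1 had a low median CpG ratio too, 0.193, against 0.7 in replicate 2. The MTF2 lists of replicate 1 had 0.281 in shCTR and 0.4 in shPHF19L#4 cells, while the PHF19 list of shCTR replicate 1 had 0.672. The SUZ12 levels below are the authors' means over both replicates of a group, so shCTR replicate 1 enters every change. A level or change without that replicate could not be computed. Results that use the peak lists are given for each replicate.

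SUZ12 was higher in shPHF19L#4 than in shCTR cells at each of the 508 regions. Levels are the authors' mean read concentrations on the log2 scale. In shCTR cells they ran from 3.94 to 9.27 with a median of 6.07, and in shPHF19L#4 cells from 5.39 to 9.97 with a median of 7.07. The change, shPHF19L#4 minus shCTR, had a median of 0.96, a 1.95-fold rise, and spanned 0.46 to 2.15, that is 1.38-fold to 4.44-fold. It reached 1, a doubling, at 233 regions, 45.9% of those listed, while 16 regions reached 1.5 and 10 stayed under 0.6. The deposited values are group means without a value per replicate, so no region could be tested here and the spread between replicates is unknown. Regions entered the list by passing the authors' P value threshold, so each of them had to differ between the groups, in either direction, to be included. The candidates were the union of peaks called in shCTR and in shPHF19L#4 cells. Of the 508 regions, 336 (66.1%) overlapped no shCTR SUZ12 peak and can have become candidates through shPHF19L#4 cells, where SUZ12 is high. The rise at every region can therefore follow in part from how the list was made.

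**Figure D1:**
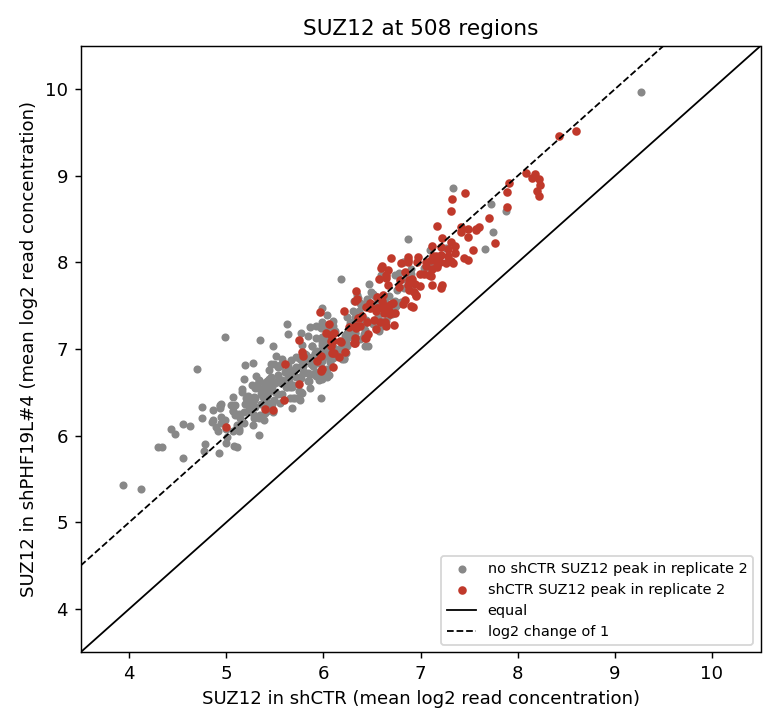
SUZ12 level in shCTR (x axis) against shPHF19L#4 (y axis), both as mean log2 read concentration, for 508 regions, with a solid line at equal levels and a dashed line at a log2 change of 1. All points lie above the solid line, and regions with a SUZ12 peak in shCTR replicate 2 (red, 158 regions) sit mostly at the higher levels.

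The largest gain was at SAMD11, where the region chr1:874992-878568 had 4.99 in shCTR cells and 7.14 in shPHF19L#4 cells, a change of 2.15. A separate region over the upstream start site of the same gene, chr1:858418-862409, rose by 1.63, from 6.18 to 7.81. The region near CLUH, chr17:2626742-2628824, went from 4.70 to 6.77. Its midpoint lay at −11826 bases from the CLUH start site, so the gene name marks its position only. ZFPM1 gained 1.76 and NFATC1, a calcium-regulated transcription factor gene, gained 1.65. CABP1, which encodes a neuronal calcium-binding protein, gained 1.67. Further gains among the 10 largest were at EDARADD (1.59), which encodes an adaptor of the ectodysplasin receptor, the potassium channel subunit gene KCNS2 (1.58) and a region away from promoters whose nearest gene is BMS1 (1.57). BMP2 also gained 1.57, a tie with the BMS1 region, which was the one counted among the 10. None of these 10 regions had a SUZ12 peak in the shCTR list of replicate 2, nor had that at BMP2. The same held for 350 of all 508 regions.

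Of the 10 smallest gains, 9 were at regions with a shCTR level above the median of the list. FOXB1 rose by 0.46, from 7.77 to 8.23, and FOXC1 by 0.55, from 8.22 to 8.77. At the forkhead genes FOXB2 and FOXF2, single regions rose by 0.55 and 0.57, while other regions there gained more, 0.87 at FOXB2 and 0.94 and 1.06 at FOXF2. SOX5, which encodes a transcription factor of cartilage and neural development, rose by 0.49. The transcription factor gene OLIG1 gained 0.52 and BMP4, a secreted growth factor gene, 0.54. KCTD1 gained 0.50 and ALOX5, the gene for arachidonate 5-lipoxygenase, 0.57. ENTREP2 was the only one of these 10 with a shCTR level under the median of the list, with 5.97 in shCTR and 6.43 in shPHF19L#4, a gain of 0.46. An adjoining region at the same promoter, chr15:29861013-29863129, gained 0.89.

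Gain and starting level were related in this way across the whole list. With the regions placed in 5 groups of similar size by their shCTR level, the median change was 1.17, 1.03, 0.93, 0.91 and 0.86 from the lowest to the highest level. The smallest change in these groups was 0.67, 0.64, 0.46, 0.55 and 0.46. Over the 508 regions Spearman's rho of change and shCTR level was −0.47. The shCTR level is subtracted in the change, and a region with few reads needs a larger change to pass a P value threshold, so the parts of these in the relation were not tested. The order of the regions hardly differed between the groups of cells, with a rho of 0.95 between the shCTR and the shPHF19L#4 level.

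The highest levels were found at a small set of wide regions, which were near the top of the list in both groups of cells. NPAS3, a neuronal transcription factor gene, was highest with 9.27 in shCTR and 9.97 in shPHF19L#4. CBX8, which encodes a subunit of the partner complex PRC1, had 8.60 and 9.52. ONECUT3, a homeobox gene, had 8.43 and 9.46. FLRT2 followed in shCTR with 8.23, and EFNA3 and FOXC1 tied for the next place with 8.22. In shPHF19L#4, PRDM12 and BCL11A, both zinc finger factor genes, completed the 5 highest with 9.03 and 9.02. At the overlapping PHF19 regions, the input level was 8.26 at NPAS3, 8.05 at CBX8 and 6.51 at BCL11A. The part of input signal in the SUZ12 levels was not tested.

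Wide regions had high levels. A read concentration counts the reads of the whole region and not per base, so a wider region gathers more reads by construction. Regions were 2884 bases wide at the median, from 957 to 12708, and covered 1.64 Mb together. Across the 508 regions, width and shPHF19L#4 level had a Spearman correlation of 0.86. The widest were ONECUT3 (12708 bases), CBX8 (10807), BCL11A (9976), NPAS3 (9964) and GDNF (9577), a neurotrophic factor gene. The narrowest was at ALKAL2, 957 bases, with 4.12 in shCTR and 5.39 in shPHF19L#4. It was followed by a region near TBC1D16 (1045), HEY2 (1172), a Notch effector gene, THBS4 (1284) and FNDC1 (1306). The median change fell from 1.08 in the narrowest of 5 width groups to 0.85 in the widest.

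**Figure D2:**
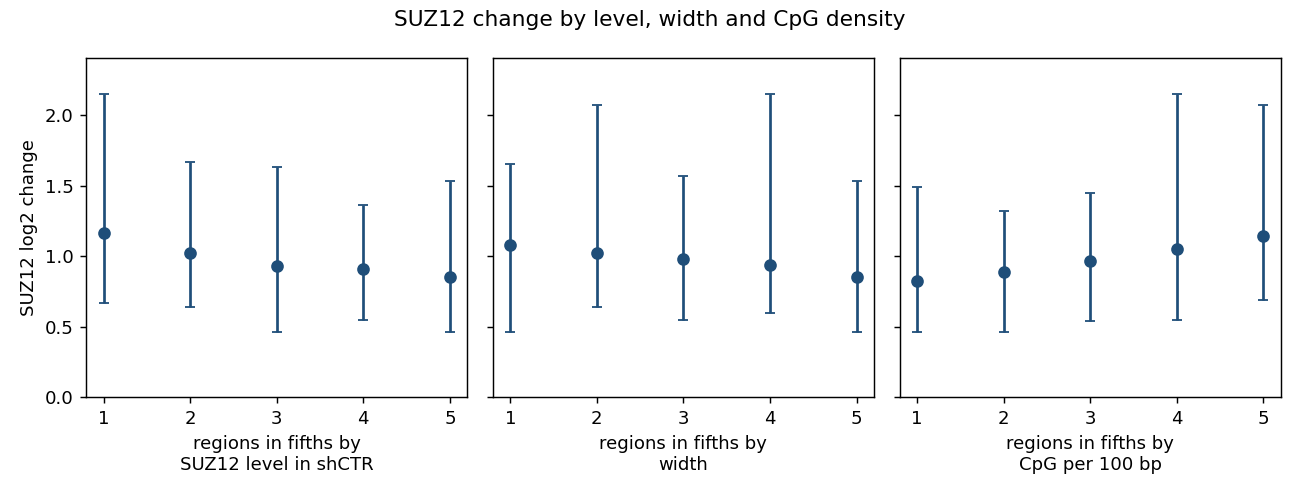
Median SUZ12 log2 change (points) and its lowest and highest value (bars) in 5 groups of regions sorted by shCTR level, width or CpG per 100 bases, from low (1) to high (5). The median falls from 1.17 to 0.86 with level and from 1.08 to 0.85 with width, and rises from 0.82 to 1.14 with CpG density.

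Most regions lay at promoters. Of the 508, 421 (82.9%) overlapped the 2.5 kb on either side of a protein-coding start site and 387 (76.2%) contained a start site. In those 387, the region extended a median of 1227 bases upstream and 1595 bases downstream of the start site nearest its midpoint, and the downstream part was the longer one in 247 (63.8%). The 87 regions away from promoters were a median of 20314 bases from the nearest protein-coding start. Of these, 32 were inside a protein-coding gene and 55 outside, and 29 were more than 50 kb away. Level and change were close in both classes, with a median change of 0.97 at promoters and 0.94 elsewhere and a median shPHF19L#4 level of 7.07 and 7.11.

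The DNA of the regions was rich in CpG. The median CpG ratio was 0.718, the median GC content 62.7% and the median density 6.84 CpG per 100 bases, and 415 regions (81.7%) had a ratio of at least 0.6. The same share was 51.7% of the listed EZH2 regions, 48.7% of MTF2 regions, 61.3% of PHF19 regions and 26.0% of H3K27me3 regions. For 1 kb to each side of a start site of 19834 protein-coding genes it was 43.1%. Of the EZH2 regions that held a listed SUZ12 region 58.4% reached this ratio, and of the other EZH2 regions 49.9%. The ratio was taken over the whole region. EZH2 regions that held a SUZ12 region were 4626 bases wide at the median, against 2884 for SUZ12 regions. The part of width in these shares was not tested. At promoters the highest ratios were at EBF3 (1.08), TJP1 (1.04), BMP2 (1.02), ALKAL2 (1.00) and IKZF1 (0.968). The lowest were at GJC3 (0.252), PSD2 (0.364), ARID3C (0.372), TMEM151B (0.375) and RARB (0.375), the retinoic acid receptor beta gene.

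**Figure D3:**
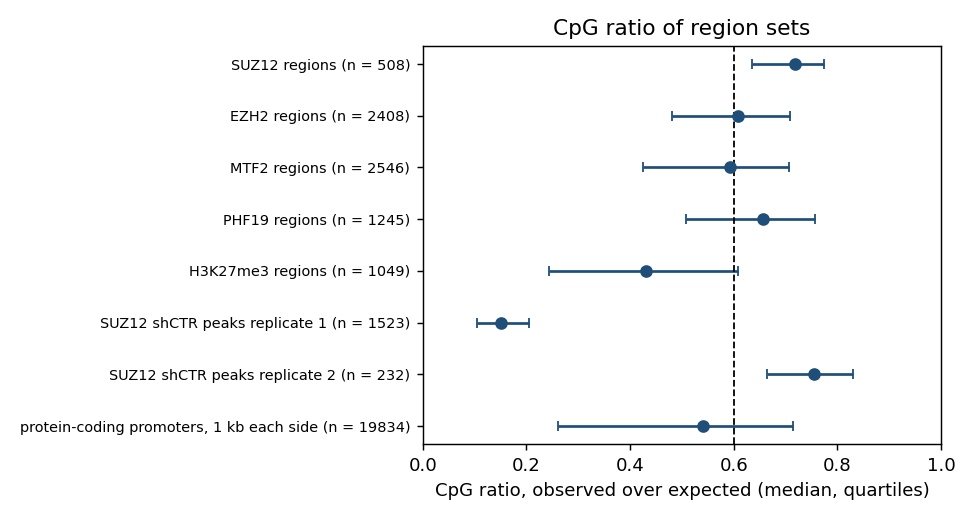
CpG ratio (x axis, observed over expected; point, median; bar, quartiles) of the listed regions, of the SUZ12 peak lists of shCTR cells and of protein-coding promoters, with the number in each set. SUZ12 regions have a median of 0.718, and the replicate 1 peak list, at 0.151, lies far from that of replicate 2.

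The gain was larger where CpG density was higher. From the lowest to the highest of 5 groups by CpG per 100 bases, the median change was 0.82, 0.89, 0.97, 1.05 and 1.14. The groups differed in other ways too. The median width was 3460 bases in the lowest and 2217 in the highest group, and the median shPHF19L#4 level 7.25 and 6.785. The parts of width and level in this relation were not tested. Regions with a CpG ratio of at least 0.6 had a median change of 1.00 and the other 93 had 0.87. The relation with the CpG ratio was weaker, with a rho of 0.30, and single regions went both ways. Of the 5 promoter regions with the highest ratio, BMP2 gained 1.57 and IKZF1 0.95. GJC3 and RARB, with low ratios, gained 0.79 and 0.71, but the region near ZNF469, with a ratio of 0.272, gained 1.48. GC content moved with the change to a similar degree, with a rho of 0.45 against 0.47 for CpG density over the 508 regions. Recovery of DNA in a library can vary with GC content, and its part in this relation was not tested.

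Counting from 2.5 kb before a gene's start to its end, 491 protein-coding genes held at least 1 of the regions, and 434 had one at a promoter, 2.19% of the 19834 genes with an annotated coding start site. Families of developmental transcription factors were present at higher shares. Homeobox genes outside the HOX clusters had a region at the promoter in 26 of 150 (17.3%), forkhead genes in 9 of 52 (17.3%), SOX genes in 4 of 19 (21.1%) and GATA genes in 2 of 6 (33.3%). Zinc finger developmental factors had one in 12 of 88 (13.6%) and basic helix-loop-helix genes in 5 of 45 (11.1%). Of 39 HOX cluster genes and 17 T-box genes 0 had a listed SUZ12 region at a promoter, which in lists of this size is near the 2.19% over all genes.

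Within these families the gain varied widely from gene to gene. Among the 6 homeobox genes with the highest shPHF19L#4 level, LMX1B rose by 1.40, from 6.87 to 8.27, and LBX1 by 0.72, from 7.88 to 8.60. ONECUT3, LHX5, IRX5 and IRX3 lay between them, with gains of 1.03, 0.94, 0.90 and 1.06, and the regions of the whole family ran from 0.62 to 1.48 with a median of 0.95. Forkhead genes had a median of 0.80. FOXQ1 stood at the upper end with 1.19, while FOXF1 and FOXL2, an ovarian regulator gene, gained 0.93 and 0.80. The 4 SOX genes ran from 0.49 at SOX5 through 0.91 at SOX7 and 0.94 at SOX21 to 1.41 at SOX18, a regulator of blood and lymphatic vessels. GATA3 gained 0.75 and GATA5 0.78. Of the helix-loop-helix genes, which here direct mostly neural fates, NEUROG2 gained 0.95, NEUROD2 0.92, NEUROG1 0.83 and HAND1, a heart gene, 0.80. In the zinc finger list BCL11B, a T cell regulator gene, and ZBTB16 gained 1.18 and 1.16, against 0.94 at PRDM12, 0.88 at PRDM6, 0.84 at BCL11A and 0.75 at GFI1.

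Genes of signalling pathways formed the next groups. WNT pathway genes had a region at 8 of 48 promoters, with a median change of 0.93. Among the ligands WNT11 gained 1.08, WNT9B 0.93, WNT7A 0.82 and WNT1 0.80, and the secreted WNT enhancers RSPO3 and RSPO1 gained 0.92 and 0.64. BMP and TGF-beta genes had one at 7 of 55, from 0.54 at BMP4 to 1.57 at BMP2. BMP6 gained 1.05, INHBB 0.82, GDF7 0.73, FSTL4 0.84 and CHRD, a secreted BMP antagonist gene, 0.94. In the Hedgehog list the ligand genes SHH and IHH gained 0.78 and 1.05 and the transcription factor gene GLI3 1.10, which made 3 of 14. The Notch ligand gene DLL1 gained 0.71 and the effectors HES3 and HEY2 0.90 and 0.76, 3 of 24. Of the ephrin and Eph genes, 3 of 22, EFNA2 gained 1.29, EFNA3 0.74 and EPHA8 0.73.

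Neuronal genes had a region at 20 of 205 promoters (9.76%), and 12 of those 20 regions gained at least 1, beside 45.9% of all listed regions. The list included glutamate receptor genes, with 1.27 at GRM4, 1.24 at GRM8, 1.09 at GRIN2C and 1.05 at GRID1, and the potassium channel genes KCNN1 (1.13) and KCNK12 (0.97). Of the genes for Polycomb proteins, 3 of 39 had one. CBX8 gained 0.92, and EPOP, whose protein is itself an accessory subunit of PRC2, rose by 1.49, from 5.98 to 7.47. Of the angiogenesis and hypoxia genes, 3 of 39, PDGFA gained 1.07, the lymphatic growth factor receptor gene FLT4 0.69 and EGLN3, an oxygen sensor gene, 0.60.

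Other lists had few members. TMPRSS2, an androgen-regulated protease gene, was the 1 prostate lineage gene of 19, with a gain of 0.79. Adhesion and EMT genes had 2 of 61, CLDN7 (1.38), a tight junction gene, and MMP25 (1.15). SOX18 was the 1 of 13 endothelial genes. The 16 cell cycle inhibitor genes, 28 blood cell genes and 20 housekeeping genes had 0. Beside the 2.19% over all genes, counts this low in lists this short set none of these groups apart. These lists came from gene symbols, and their shares were not tested against those of other genes.

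**Figure D4:**
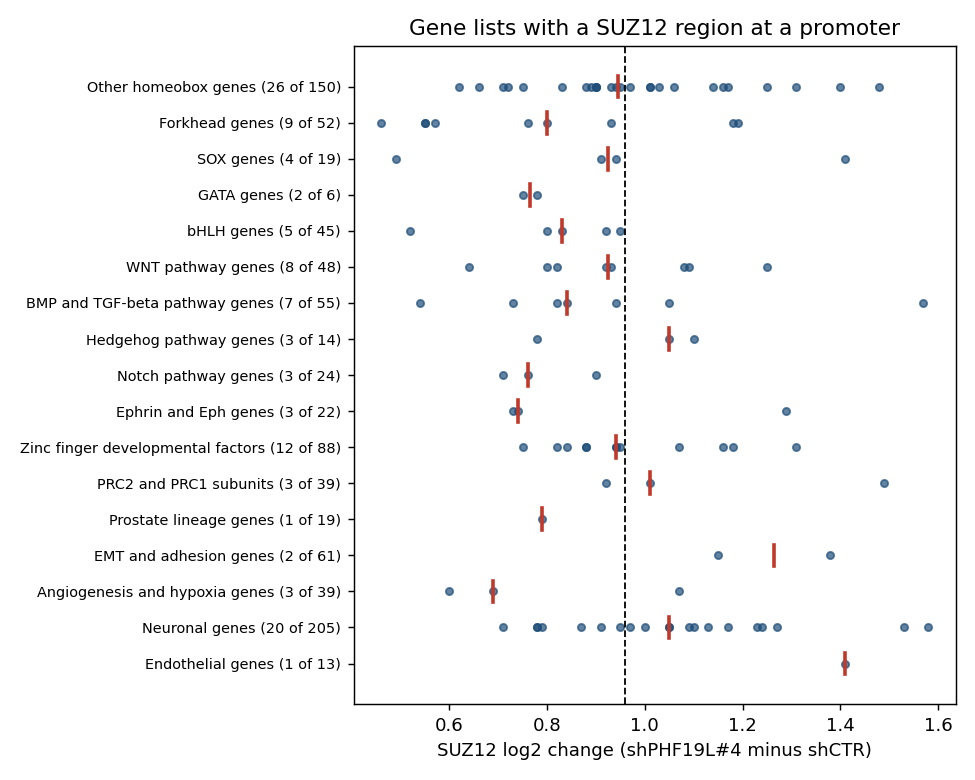
SUZ12 log2 change (x axis, shPHF19L#4 minus shCTR) of each gene with a region at its promoter (points), by gene list, with the median of the list's regions (red) and the number of members with a region of all members. The dashed line is the median of the 508 regions, 0.96.

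EZH2, the catalytic partner, was compared region by region. Each of the 508 SUZ12 regions overlapped a listed EZH2 region, and 470 (92.5%) lay wholly inside one. The reverse share was small, since the 490 EZH2 regions involved were 20.3% of 2408. EZH2 regions were the wider ones, 4744 against 2884 bases at the median. EZH2 was higher in shPHF19L#4 at all 508, as it was at 2407 of the 2408 listed EZH2 regions. Its median change was 1.23, a 2.35-fold rise, beside 1.16 over the whole EZH2 list, and its change was the larger of the pair in 464, the smaller in 42 and equal in 2. The difference, EZH2 minus SUZ12 change, had a median of 0.26 and ran from −0.63 to 0.74. EZH2 gained at least 1 in 433 of these regions, beside 70.9% of all listed EZH2 regions. The same share was 28.7% of the MTF2 list and 82.0% of the H3K27me3 list. Both proteins did so in 225, EZH2 alone in 208, SUZ12 alone in 8 and neither in 67. The 2 tables were normalised separately, so the sizes of the changes are set side by side without a test.

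The order of the regions was shared between both proteins to a fair extent. Spearman's rho of SUZ12 and EZH2 change was 0.68 over 508 regions, and 0.57, 0.56 and 0.68 within the regions of low, middle and high GC content. The points share cells, base composition and, where regions are neighbours, chromatin, and both lists hold only regions that passed a threshold. Spearman's rho of the levels was 0.81 in shCTR and 0.79 in shPHF19L#4.

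**Figure D5:**
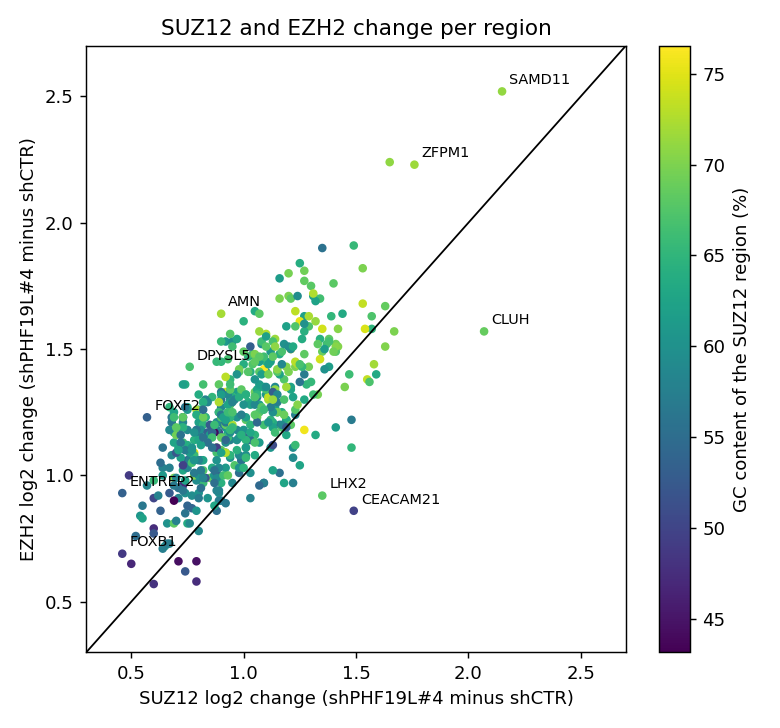
SUZ12 (x axis) against EZH2 (y axis) log2 change, shPHF19L#4 minus shCTR, at 508 regions, coloured by GC content, with a line at equal change. The points rise together, rho 0.68, and 464 lie above the line, with the region near CLUH, LHX2 and the region near CEACAM21 farthest below it.

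SAMD11 led for both proteins, with an EZH2 change of 2.52 beside 2.15 for SUZ12, and ZFPM1 and NFATC1 followed with 2.23 and 2.24 for EZH2. Among the 10 smallest SUZ12 gains the EZH2 change ran from 0.65 at KCTD1 and 0.69 at FOXB1 through 1.00 at SOX5 to 1.23 at FOXF2, the last equal to the median of the 508 regions. EZH2 exceeded SUZ12 most at AMN (1.64 against 0.90), DPYSL5 (1.43 against 0.76), FOXF2 (1.23 against 0.57), GDF7 (1.36 against 0.73) and SULF2 (1.53 against 0.90). SUZ12 exceeded EZH2 most at the region near CEACAM21 (1.49 against 0.86), which had the lowest shCTR level of the list, 3.94. Next came the region near CLUH (2.07 against 1.57), LHX2 (1.35 against 0.92), SATB1 (1.48 against 1.11) and a region near ZNF469 (1.48 against 1.22). At LHX2, a homeobox gene of forebrain development, a single EZH2 region of 20109 bases with a change of 0.92 spanned a pair of SUZ12 regions, of which chr9:126773602-126776201 gained 1.35 and chr9:126760770-126764793 gained 0.62.

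The listed EZH2 regions that held a SUZ12 region tended to have a higher EZH2 level. Their median EZH2 level in shPHF19L#4 was 8.65, against 7.01 in the 1918 others, and their median width 4626 against 2789 bases. With the EZH2 regions in 5 groups by that level, the share with a listed SUZ12 region was 0.204%, 0.633%, 3.51%, 26.1% and 71.8%. The level counts the reads of the whole region, and a wider region also has more room for an overlap. The part of width in these differences was not tested. The EZH2 change differed less, with a median of 1.23 in regions with and 1.14 in those without a SUZ12 region.

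PRC2 accessory subunits were found at most of the regions. A listed MTF2 region overlapped 503 (99.0%), and MTF2 was higher in shPHF19L#4 at all 503, as it was at 2539 of the 2546 listed MTF2 regions. The median MTF2 change was 0.92 at the 503 and 0.87 over the whole MTF2 list. The MTF2 change was smaller than the SUZ12 change in 321 and larger in 170. The 5 regions without a listed MTF2 region, named here after their values were seen, were at EGLN3, EFNA2, CYS1 and GJC3 and near PAX5. An MTF2 peak in shCTR cells was listed at 451 regions in replicate 1 and 508 in replicate 2, so also at these 5 in replicate 2. The lists held 2516 and 32254 peaks. A region listed for PHF19 against input in shCTR cells overlapped 387 (76.2%). SUZ12 gained a median of 0.93 at these and 1.11 at the other 121. The shCTR level was 6.30 and 5.50, so the class with PHF19 also had the higher SUZ12 level at the start.

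A SUZ12 peak in shCTR cells was listed at a minority of the regions. With either replicate counted, 336 regions (66.1%) had none, 42 had one in both, 116 in replicate 2 only and 14 in replicate 1 only. Replicate 2 alone gave 158 regions (31.1%) and replicate 1 alone 56 (11.0%). The 336 regions without a peak had a median level of 5.79 in shCTR and 6.80 in shPHF19L#4 and a change of 1.03. With replicate 2 as the only list, the median change was 0.89 with and 1.02 without a peak. A region without a shCTR peak can have become a candidate through a peak in shPHF19L#4 cells. A larger change in that class can therefore follow from the selection, and no result is drawn from it. NPAS3, highest in level, had a peak in the list of replicate 1 and none in that of replicate 2.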

How the data were processed

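SUZ12, EZH2, MTF2, H3K27me3 and PHF19 ChIP-seq of DU145 cells was used as deposited. Per the submitters' processing notes and the study's methods, the authors mapped reads with Bowtie to hg19, or hg19 and dm3 with fly spike-in. They called peaks with MACS in each replicate against its control. They ran DiffBind over the union of peaks for shPHF19L#4 against shCTR, and over a consensus set for PHF19 against input. Versions were not given in the sources used here. The log2 values are mean read concentrations per group deposited by the authors, with no fly scaling named for them. The tables that compare shPHF19L#4 with shCTR carry a pair of header lines, of which the upper names the other column as input and the lower as knockdown. The lower line was used, and every shPHF19L#4 level and change rests on that reading. In the peak lists, the score of a peak is the deposited MACS score. The fold, P value and FDR columns hold the authors' own comparison and were not used. Depth per library is unknown.

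The change was computed as shPHF19L#4 minus shCTR for all listed regions. Overlaps needed 1 base. A CpG ratio was taken over the whole region, promoters were 2.5 kb to each side of protein-coding starts of GENCODE release 44 on GRCh37, and an EZH2 change came from the region with the largest overlap. No test across samples was possible, since the deposited tables hold group means. Named regions were the 10 largest and 10 smallest changes, the 5 extremes of level, width, promoter CpG ratio and EZH2 minus SUZ12 difference, any region without EZH2 (0 found), and up to 6 genes per list by shPHF19L#4 level. Further regions at LHX2, ENTREP2, FOXB2 and FOXF2 were named after their values were seen, as were the regions without MTF2 and those shared with H3K27me3. A few regions that this rule names are not reported here. Members and lists were chosen with earlier results of these data known. Python 3.11.15, numpy 2.4.6, pandas 2.3.3, scipy 1.17.1, pysam 0.24.0, samtools 1.23.1 and matplotlib 3.10.9 were used, and the functions for overlap and CpG content were tested on simulated data.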

Additional observations from a re-analysis of the deposited data

How the results depend on the processing

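Of 39 alternatives tried for 12 results, 25 left the value within its interval, 1.5 times a count or 0.1 of a rho, and 14 moved it, none with a change of direction. For shares this was a 95% interval that counts regions as independent. Regions are not replicates, so these labels do not measure the spread between libraries. The median SUZ12 change was 0.89 in regions at or above the median shCTR level, 0.88 in those with a shCTR SUZ12 peak and 0.885 with the replicate 2 list only, the last chosen after seeing the data. Regions with a change of at least 0.8 numbered 404 and of at least 1.2, 100, which follows from the threshold. The share with a shCTR peak was 11.0% to 31.1% with 1 replicate left out, 17.9% with a score of at least 100 and 20.9% where the peak had to cover 50% of the region. The promoter share was 78.9% by midpoint and 91.1% with all annotated genes, and the CpG share 89.4% in the central 1 kb and 36.0% at a ratio of 0.75. PHF19 peaks covered 60.6% (replicate 1) and 96.1% (replicate 2) of the regions. In regions at or above the median shCTR level, an alternative also chosen after seeing the data, the rho of SUZ12 and EZH2 change was 0.68. Apart from thresholds, the cause of these shifts was not tested.

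No paired analysis was possible because the tables give group means only. Without values per replicate or read depth, the error of a single region and the effect of the replicate that stood apart were not measured, and regions that did not pass the authors' threshold were not analysed here.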

Other observations

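H3K27me3, the product of PRC2, was listed as changed at few of the SUZ12 regions. A listed H3K27me3 region overlapped 24 of the 508 (4.72%), which were 2.29% of the 1049 H3K27me3 regions, and the mark was higher in shPHF19L#4 at all 24, as it was at 1048 of the 1049. Its median change at the 24 was 1.03. SUZ12 gained a median of 1.35 at these, 23 of them by at least 1 beside 45.9% of all 508, and 0.95 at the other 484. These 24 also started lower, with a median SUZ12 level of 5.34 in shCTR against 6.09, and a lower start went with a larger change across the whole list. EZH2 gained a median of 1.67 at the 24 and 1.22 at the others. SAMD11, ZFPM1 and NFATC1 were among the 24, with H3K27me3 changes of 1.65, 1.67 and 1.63, as were EPOP (1.09), CLDN7 (1.18), the WNT receptor gene FZD8 (0.97) and the growth factor gene FGF18 (1.03). Most SUZ12 regions nevertheless carried the mark in shCTR cells, with an H3K27me3 peak at 486 in replicate 1 and 503 in replicate 2. In shPHF19L#4 cells these counts were 466 and 508. The lists differed in length, with 39254 and 15994 peaks in shCTR and 35128 and 57026 in shPHF19L#4. The counts are therefore not read as a change between the groups.

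Some regions lay close together. In all, 56 regions were within 10 kb of another, in 29 neighbouring pairs, and the SUZ12 change of such neighbours differed by a median of 0.18, against 0.21 for neighbours farther apart on a chromosome. The X chromosome held 1 SUZ12 region (0.197% of the list), 28 EZH2 regions (1.16%) and 41 MTF2 regions (1.61%).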
